A study of Mus musculus with 9 samples.

Results

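The genes that macrophages and other leukocytes express were followed in ventricular RNA of mouse pups at postnatal day 7, an age at which the heart holds its own resident macrophages. The set comprises 37 genes of 38293 in the count table, chosen by name: markers of all leukocytes, of macrophages and monocytes, of lymphocytes and of neutrophils. All 37 were found in the table, and 34 passed the filter on low counts; Ccl8, Cd3e and Cd3g did not and are given as levels only. The study compared 9 libraries to ask what loss of Arid1a, which encodes a subunit of a chromatin remodeller (SWI/SNF), does to the neonatal heart. The 5 control libraries came from Arid1a f/f littermates without Cre, and the 4 cKO libraries from aMHC-Cre;Arid1a f/f pups. The floxed alleles were therefore shared by both groups, and the Cre, driven by a cardiomyocyte promoter, deletes Arid1a in cardiomyocytes. Pups of both sexes on a C57B/6 J background were used, and whole ventricles were taken, so each library mixes cardiomyocytes with every other cell of the ventricle. The labels do not say that each library is a separate pup. The paper's figure legend gives 4 cKO and 5 control hearts, and its methods call such n biological replicates. The p-values measure the spread between these libraries.

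Tissue macrophages engulf dying cells and debris, and their identity is written by the transcription factor PU.1 (Spi1) and kept up by signals through the receptor of colony-stimulating factor 1 (Csf1r). Their surface is read with F4/80 (Adgre1), Fc receptors and scavenger receptors, and they are the main source of the C1q chains that start the classical complement cascade. Monocytes that enter from blood follow the chemokine Ccl2 through its receptor Ccr2. In bulk RNA, fewer leukocytes and less of a transcript per leukocyte cannot be told apart.

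Total counts were 31011055 to 40073801 per library and did not differ detectably between groups (two-sided exact permutation p = 0.437, n = 5 and 4, smallest possible p = 0.00794). Arid1a was at 142, 128, 133, 147 and 148 CPM in controls 1 to 5 and 108, 113, 100.3 and 104 CPM in cKO 1 to 4. The groups did not overlap, and the cKO libraries were lower (log2 fold change -0.39 ± 0.06 (SE), adjusted p = 0.00132, edgeR quasi-likelihood test, Benjamini-Hochberg over all genes), by less than 1.5-fold. These counts cover the whole gene and all cells of the ventricle. The libraries fall into 2 sets by the count of Rps3a3, a copy of a ribosomal protein gene that was at 0.512, 0.521, 112, 108 and 109.8 CPM in controls 1 to 5 and 0.498, 0.345, 0.492 and 99.7 CPM in cKO 1 to 4. Control replicates 1 and 2 and cKO replicates 1, 2 and 3 are below the split of 10 CPM (Rps3a3-low, 5 libraries) and control replicates 3, 4 and 5 and cKO replicate 4 above it (Rps3a3-high, 4 libraries). Rps3a1, a near-identical copy whose reads the counting could have divided differently, ran the other way, at 253, 258, 72.9, 73.8 and 75.7 CPM in controls 1 to 5 and 276, 258, 264 and 70.8 CPM in cKO 1 to 4. No label names these sets, the low set holds 3 of the 4 cKO libraries, and what sets them apart was not tested. The members are therefore compared both by genotype and by library set. Levels are CPM, counts per 1e6 of each library's scaled total of the genes that passed the filter.

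Macrophage genes were present in all libraries, and the T cell genes Cd3e and Cd3g were near 0 in most. A wider list of 16 T and NK cell genes summed to 31.7 to 55.5 CPM per library, and 5 of them passed the filter. Per kilobase of exon, the highest mean level over all libraries was that of Lyz2 (34.9 CPM per kb), the lysozyme of myeloid cells, which has a near-identical copy, Lyz1, that could share its reads. C1qb (18.6 CPM per kb), C1qa (17.2), the adaptor gene Tyrobp (10.4) and the Fc receptor chain gene Fcer1g (9.86) followed. Neighbours in this order overlapped over the libraries at every step, so the order is one of means. Csf1r was at 5.47, Cd68 at 4.68, Mrc1 at 4.60 and Adgre1 at 3.55 CPM per kb. Itgax, an integrin of dendritic cells and some macrophages, was at 0.0630 CPM per kb, and the T cell chains Cd3g and Cd3e were at 0.0742 and 0.0543. Ccl8 had no count in 5 of the 9 libraries and Cd3e none in 1.

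Promoter sequence is shown for 3 genes that were lower together in the Rps3a3-high libraries: Fcgr1 (high-affinity IgG receptor), C1qb and Ccl12. These were the members lower in that set whose single RefSeq entry (GRCm38.p6) gave 250 bases before the start with no overlap with an annotated exon. The Fcgr1 window is chr3:96293970-96294219, minus strand, the C1qb window chr4:136886201-136886450, minus strand and the Ccl12 window chr11:82101595-82101844, plus strand. Capitals mark GAGGAA or its reverse complement, the core that PU.1 reads.
Fcgr1: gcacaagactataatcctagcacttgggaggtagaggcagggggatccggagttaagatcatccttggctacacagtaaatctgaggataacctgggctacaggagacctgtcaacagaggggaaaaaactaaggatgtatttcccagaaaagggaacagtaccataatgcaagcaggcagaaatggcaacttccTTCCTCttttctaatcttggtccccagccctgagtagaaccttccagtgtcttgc
C1qb: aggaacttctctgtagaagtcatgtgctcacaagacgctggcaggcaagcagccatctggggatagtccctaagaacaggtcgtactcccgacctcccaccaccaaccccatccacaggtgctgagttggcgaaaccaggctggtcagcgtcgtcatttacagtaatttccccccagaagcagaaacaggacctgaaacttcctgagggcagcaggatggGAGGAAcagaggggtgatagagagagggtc
Ccl12: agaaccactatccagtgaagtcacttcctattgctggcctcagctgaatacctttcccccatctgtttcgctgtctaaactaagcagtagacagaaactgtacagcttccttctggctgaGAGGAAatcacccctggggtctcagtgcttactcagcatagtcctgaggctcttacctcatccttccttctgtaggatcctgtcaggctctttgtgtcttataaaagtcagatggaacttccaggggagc
Each holds 1 match. It begins 55 bases before the start in Fcgr1, 30 in C1qb and 130 in Ccl12. Promoters were found for 28 of the 37 members, in 32 windows, of which 17 hold the motif on either strand (53.1%), against 23.3% of all 32851 windows of this length in the table. Windows of members that were lower in the Rps3a3-high set held it in 5 of 10 cases and those of other members in 12 of 22. A match is a run of letters and no evidence of binding.

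Between cKO and control, none of the leukocyte genes passed the test. Of 34 tested, 0 were called (fold over 1.5 with an adjusted p below 0.05), where 6.72% of all genes were, and 3 had an unadjusted p under 0.05 in edgeR (29.7% of all genes). That last count turned on single libraries: it was 13 without cKO replicate 4 (26.4% of all genes), 10 without control replicate 2 (28.9%), 6 without control replicate 1 (31.3%) and 1 without control replicate 4, control replicate 5, cKO replicate 1 or cKO replicate 3 (26.2% to 31%). DESeq2 called 1, Lyz2 (7.4% of all genes), and edgeR called 2 without cKO replicate 4, Lyz2 and Adgre1 (6.09% of all genes). That library is the only Rps3a3-high one in cKO. Without it the cKO libraries are all Rps3a3-low, while the controls are of both sets. With all libraries, the members' log2 fold changes were positive in 28 of 34, against 51.5% of all genes, with a median of 0.29 against 0.01 over all genes. Without control replicate 2 or cKO replicate 4 the median was 0.45, and without control replicate 5, the lowest, 0.20. By role, all 5 pan-leukocyte genes were positive (0.26 to 0.64), all 9 identity genes (0.12 to 0.71) and all 3 C1q chains (0.45 to 0.70), while 2 of 5 resident receptors and 0 of 2 calprotectin genes were. The groups lay apart without overlap in 0 of the 34, while 16.7% of all genes had no overlap.

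By library set, many were lower. With genotype in the same fit, 16 of 34 leukocyte genes were lower in the Rps3a3-high libraries and 0 higher, where 1.56% of all genes were called lower and 0.313% higher. Their median log2 difference was -0.65, against 0.00 over all genes, and 17 of 34 lay lower in every high library than in any low one, against 4.46% of all genes. The count was 8 without control replicate 2 and 6 without cKO replicate 4, with 0.493% and 0.498% of all genes then called lower. 6 genes passed whichever library was left out: Cd14, Fcgr1, C1qa, C1qb, C1qc and Ccl2. Over all genes the difference between the sets went with GC content (Spearman's rho across 15174 genes = -0.50, genes not being independent), and the members called lower had a median GC content of 52.3% against 48.6% in the other tested members. Their median exon length was 1431 bases against 2456.5. With the trends on GC content and length removed, 15 members were lower (1.03% of all genes).

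With library set as a term, the median log2 fold change of the members was 0.12 and 23 of 34 were positive. No member was called, and 1 had an adjusted p under 0.05, Lyz2 (log2 fold change 0.46 ± 0.12 (SE), adjusted p = 0.0215), where 19.9% of all genes had. Within the low set, the mean difference of log2(CPM + 0.5) between 3 cKO and 2 control libraries was positive in 28 members with a median of 0.13. Within the high set, where 1 cKO library stands against 3 controls, it was positive in 17 with a median of -0.01. The difference between the sets in the genotype effect was tested as an interaction: 0 of 34 members passed in edgeR (0.0131% of all genes), 2 had an unadjusted p under 0.05 (4.05%), and DESeq2 gave 0 members.

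**Figure D1:**
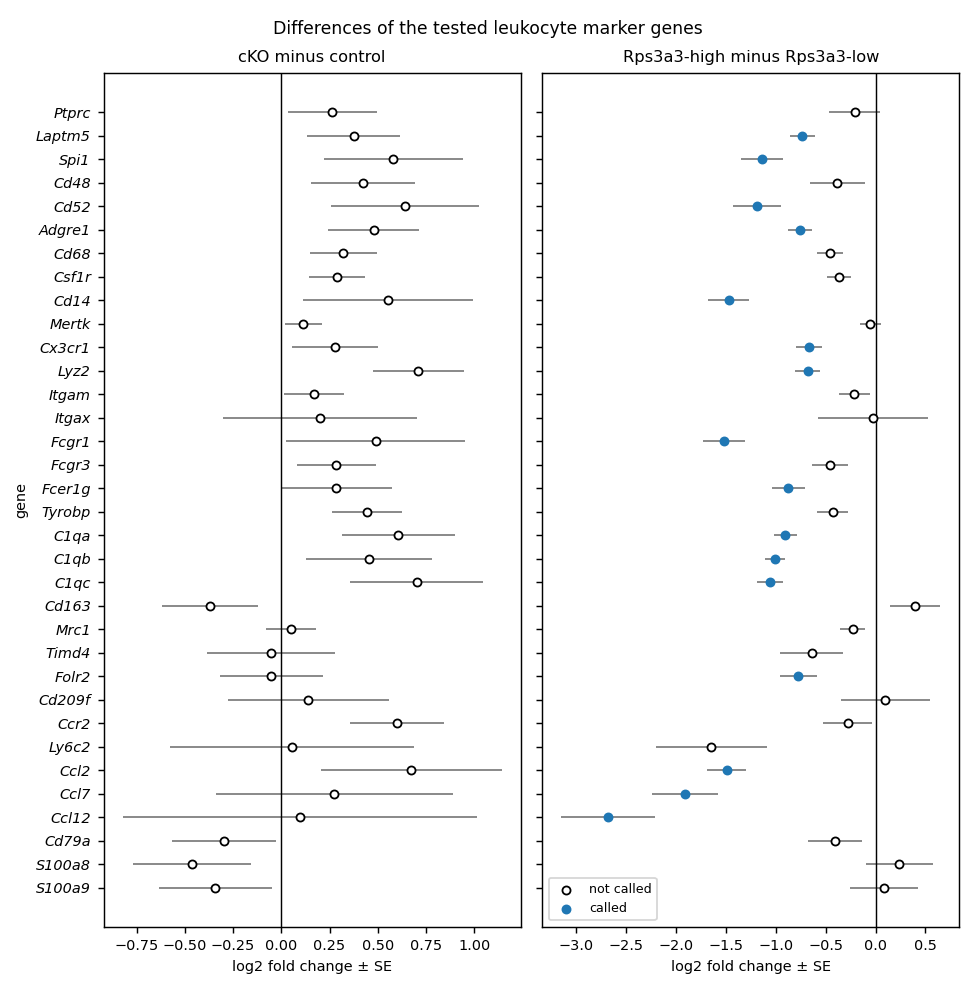
Log2 fold change with its SE of the 34 tested leukocyte genes, cKO minus control on the left and Rps3a3-high minus Rps3a3-low on the right, from edgeR fits over all 9 libraries. Filled points are called: 0 on the left and 16 on the right, all of them below 0.

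The C1q chains, among the highest levels per kilobase, split by library set. C1qb, C1qc and C1qa lie side by side on the minus strand of chromosome 4 (136880129 to 136898803, GRCm38), and together encode the recognition molecule of the classical complement pathway. C1qa was at 19.9, 20.7, 12.7, 9.63 and 9.51 CPM in controls 1 to 5 and 24.4, 28.3, 21.8 and 13.7 CPM in cKO 1 to 4. C1qb was at 24.1, 25.9, 14.5, 10.7 and 11.8 CPM in controls 1 to 5 and 28.7, 28.2, 24.8 and 13.8 CPM in cKO 1 to 4. C1qc was at 16.2, 19.1, 10.5, 7.55 and 9.15 CPM in controls 1 to 5 and 24.4, 26.4, 20.5 and 10.1 CPM in cKO 1 to 4. In each, all Rps3a3-high libraries lay below all Rps3a3-low ones, and within either set the cKO libraries overlapped the controls or lay above them. All chains were lower in the high set, C1qa (log2 difference -0.90 ± 0.11 (SE), adjusted p = 0.00283), C1qb (log2 difference -1.01 ± 0.10 (SE), adjusted p = 0.000949) and C1qc (log2 difference -1.06 ± 0.13 (SE), adjusted p = 0.00214). By genotype the log2 fold changes of C1qa, C1qb and C1qc were 0.61, 0.45 and 0.70, with adjusted p = 0.203, 0.396 and 0.213, and with library set in the fit they were 0.32, 0.14 and 0.33.

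Lyz2 (ENSMUSG00000069516, chromosome 10, 117277331 to 117282321) had the smallest adjusted p of the members by genotype. It was at 46.0, 43.7, 35.9, 29.7 and 23.7 CPM in controls 1 to 5 and 75.1, 59.8, 62.4 and 37.3 CPM in cKO 1 to 4. The lowest cKO library, replicate 4, lay inside the control range and the other cKO libraries above it. The mean was 35.8 ± 9.37 CPM (SD, n = 5) in control and 58.6 ± 15.7 CPM (SD, n = 4) in cKO (log2 fold change 0.71 ± 0.23 (SE), adjusted p = 0.0717), and DESeq2 gave an adjusted p of 0.00619. Without cKO replicate 4 the log2 fold change was 0.88 with adjusted p = 0.0192 in edgeR, and the cKO libraries then left are all Rps3a3-low. With all libraries and library set as a term it was 0.46 (adjusted p = 0.0215). Lyz2 was also lower in the Rps3a3-high libraries (log2 difference -0.68 ± 0.13 (SE), adjusted p = 0.0152). On log2(CPM + 0.5) cKO minus control was 0.54 within the low set and 0.34 within the high set.

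Macrophage identity genes divided by library set to different degrees. Cd14, a co-receptor for bacterial lipopolysaccharide, was at 3.22, 4.78, 1.94, 1.38 and 1.78 CPM in controls 1 to 5 and 4.70, 5.01, 4.46 and 1.26 CPM in cKO 1 to 4. The 4 Rps3a3-high libraries were the lowest, cKO replicate 4 included (log2 difference -1.47 ± 0.21 (SE), adjusted p = 0.00446). F4/80, encoded by Adgre1 (ENSMUSG00000004730, chromosome 17, 57358691 to 57483527), was at 13.4, 11.7, 8.42, 7.46 and 7.99 CPM in controls 1 to 5 and 18.4, 13.7, 14.3 and 8.16 CPM in cKO 1 to 4. Its high libraries were again below all low ones (log2 difference -0.76 ± 0.12 (SE), adjusted p = 0.00833). Without cKO replicate 4, Adgre1 and Csf1r passed by genotype (12.4% of all genes had an adjusted p under 0.05), at log2 fold changes of 0.66 (adjusted p = 0.0481) and 0.43 (adjusted p = 0.0285). The cKO libraries left in that fit are all Rps3a3-low. With all libraries and library set as a term, edgeR gave 0.21 (adjusted p = 0.271) for Adgre1 and 0.14 (adjusted p = 0.458) for Csf1r. Cx3cr1, the fractalkine receptor, was lower in the high set (log2 difference -0.67 ± 0.13 (SE), adjusted p = 0.0192). Cd68, a lysosomal glycoprotein of phagocytes, and Csf1r had log2 set differences of -0.46 and -0.37 and did not pass (adjusted p = 0.0617 and 0.0936).

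Mertk, the receptor kinase with which macrophages clear apoptotic cells, had the lowest ratio of highest to lowest library of the members detected in all libraries. It was at 13.2, 13.6, 13.1, 13.8 and 12.4 CPM in controls 1 to 5 and 13.7, 12.9, 17.0 and 13.7 CPM in cKO 1 to 4. Its highest library over its lowest was 1.37-fold, against 15.6-fold for Ccl12. Neither comparison passed for Mertk (by genotype log2 fold change 0.12 ± 0.10 (SE), adjusted p = 0.459, by set log2 difference -0.05 ± 0.10 (SE), adjusted p = 0.792). The integrins Itgam and Itgax did not pass either; Itgam ranged from 3.37 to 5.66 CPM and Itgax from 0.0647 to 0.579 CPM, the latter resting on 96 counts over all libraries.

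The chemokines that draw monocytes ranged widely and lie in one cluster on chromosome 11. Ccl2 was at 3.82, 5.85, 1.58, 1.79 and 1.33 CPM in controls 1 to 5 and 6.53, 5.09, 4.61 and 2.20 CPM in cKO 1 to 4. Ccl7 was at 1.62, 4.34, 0.582, 1.20 and 0.841 CPM in controls 1 to 5 and 2.96, 2.20, 2.64 and 0.581 CPM in cKO 1 to 4. Ccl12 was at 1.99, 8.05, 1.08, 0.629 and 0.517 CPM in controls 1 to 5 and 2.96, 2.20, 4.87 and 0.557 CPM in cKO 1 to 4. For all of them the Rps3a3-low libraries were above the high ones without overlap, and control replicate 2 was the highest library for Ccl7 and Ccl12. Their median log2 set difference was -1.91, with values for Ccl2 (log2 difference -1.49 ± 0.19 (SE), adjusted p = 0.00295), for Ccl7 (log2 difference -1.91 ± 0.33 (SE), adjusted p = 0.0109) and for Ccl12 (log2 difference -2.68 ± 0.47 (SE), adjusted p = 0.015). Without control replicate 2 that of Ccl12 was -1.95 with adjusted p = 0.0597, and that of Ccl7 was -1.49 with adjusted p = 0.0863. By genotype none passed (adjusted p = 0.374, 0.807 and 0.957). Ccl8 had 14 counts over all libraries, 0.174 CPM in control replicate 2 being the highest level. The receptor Ccr2, by which circulating monocytes follow Ccl2, was at 1.35, 1.85, 1.61, 0.755 and 1.10 CPM in controls 1 to 5 and 2.33, 1.72, 2.06 and 2.01 CPM in cKO 1 to 4. It passed by neither genotype (log2 fold change 0.60 ± 0.25 (SE), adjusted p = 0.123) nor set (log2 difference -0.28 ± 0.25 (SE), adjusted p = 0.509). Ly6c2, a marker of inflammatory monocytes with a near-identical copy, Ly6c1, was at 0.0484 to 0.898 CPM and did not pass.

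**Figure D2:**
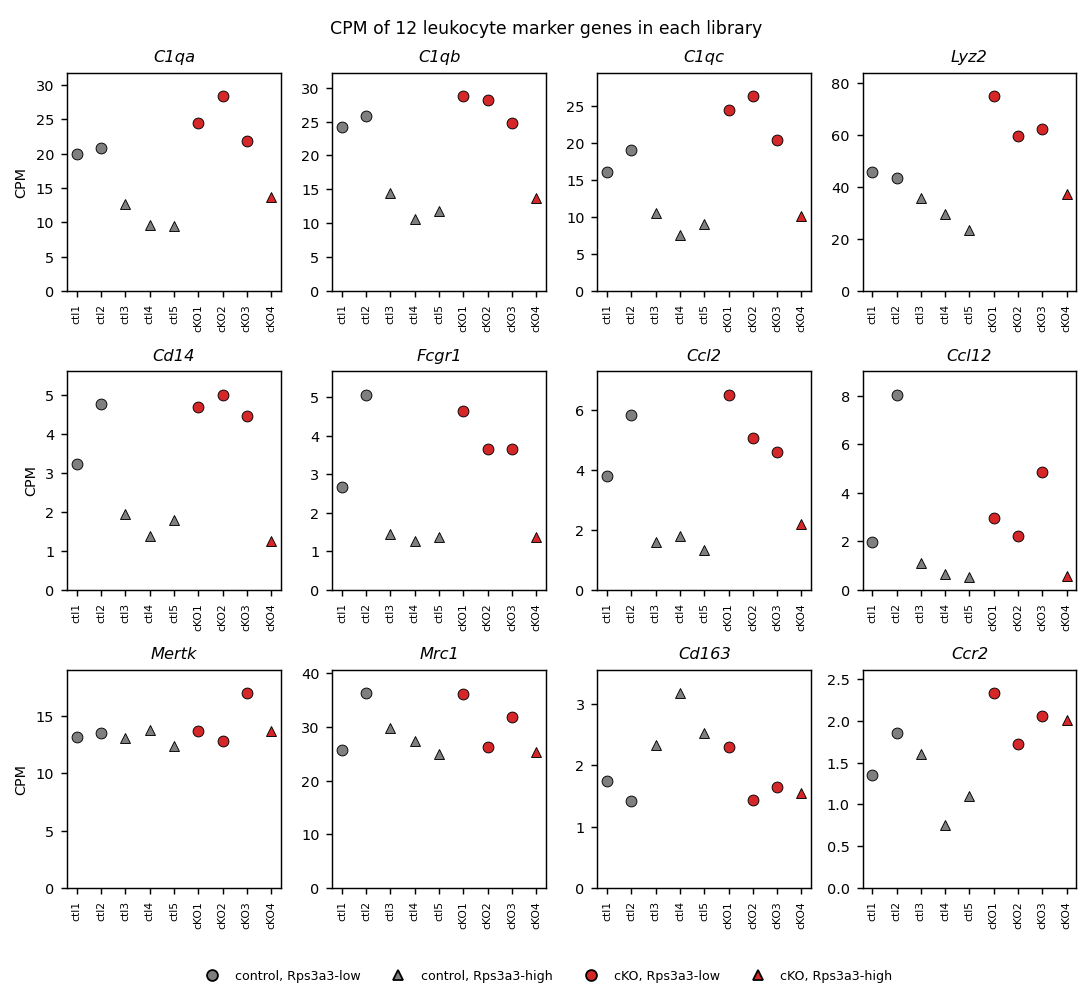
CPM of 12 leukocyte genes in each library, with control in grey, cKO in red, Rps3a3-low libraries as circles and Rps3a3-high ones as triangles. C1qa, C1qb, C1qc, Lyz2, Cd14, Fcgr1, Ccl2 and Ccl12 separate by shape without overlap and overlap by colour, whereas Mertk lies between 12.4 and 17.0 CPM in all libraries.

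Of the Fc receptor and adaptor genes, 2 of 4 were lower in the high set, where 1.56% of all genes were. Fcgr1 was at 2.68, 5.07, 1.44, 1.26 and 1.36 CPM in controls 1 to 5 and 4.63, 3.66, 3.65 and 1.38 CPM in cKO 1 to 4, with all high libraries below all low ones (log2 difference -1.52 ± 0.21 (SE), adjusted p = 0.00446). Fcer1g, the signalling chain shared by Fc receptors, was lower in the high set (log2 difference -0.88 ± 0.17 (SE), adjusted p = 0.0155). Fcgr3, the low-affinity IgG receptor, had a set difference of -0.45 and Tyrobp, the adaptor of activating receptors, -0.43, and neither passed. By genotype the Fc receptor and adaptor genes had log2 fold changes from 0.29 to 0.49 and none passed. Among pan-leukocyte genes, Spi1, which encodes PU.1, was at 2.59, 3.68, 1.72, 1.20 and 1.29 CPM in controls 1 to 5 and 3.98, 4.22, 2.72 and 1.67 CPM in cKO 1 to 4 and was lower in the high set (log2 difference -1.14 ± 0.21 (SE), adjusted p = 0.0138). Cd52 (log2 difference -1.19 ± 0.24 (SE), adjusted p = 0.0215) and Laptm5 (log2 difference -0.73 ± 0.13 (SE), adjusted p = 0.0106), a lysosomal membrane protein of haematopoietic cells, were lower too. Ptprc, the CD45 phosphatase of all leukocytes, did not pass. It was at 6.20, 7.53, 10.3, 5.79 and 4.56 CPM in controls 1 to 5 and 9.33, 7.16, 10.6 and 6.08 CPM in cKO 1 to 4. Its high libraries overlapped the low ones, and control replicate 3 was among the highest (log2 difference -0.21 ± 0.26 (SE), adjusted p = 0.645). Cd48 had a set difference of -0.38 and did not pass.

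Of the 5 receptors of resident macrophages, 1 was lower in the high set, where 1.56% of all genes were. Mrc1, the mannose receptor, was at 25.7, 36.3, 29.8, 27.5 and 24.9 CPM in controls 1 to 5 and 36.2, 26.2, 31.9 and 25.3 CPM in cKO 1 to 4 and passed neither test (by genotype log2 fold change 0.05 ± 0.13 (SE), adjusted p = 0.833, by set log2 difference -0.23 ± 0.13 (SE), adjusted p = 0.281). Cd163, the scavenger receptor for haemoglobin bound to haptoglobin, was at 1.75, 1.42, 2.33, 3.18 and 2.52 CPM in controls 1 to 5 and 2.30, 1.43, 1.65 and 1.55 CPM in cKO 1 to 4. Its 3 highest values were those of the high-set controls (log2 difference 0.40 ± 0.25 (SE), adjusted p = 0.353). Folr2, a folate receptor, was lower in the high set (log2 difference -0.77 ± 0.19 (SE), adjusted p = 0.0397) but passed in 3 of 9 fits that left out a library. Timd4, a phosphatidylserine receptor, and Cd209f, a lectin, reached at most 0.956 and 0.557 CPM and did not pass. The genotype log2 fold changes of these 5 genes had a median of -0.05, against 0.29 for the 9 identity genes and 0.61 for the C1q chains.

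**Figure D3:**
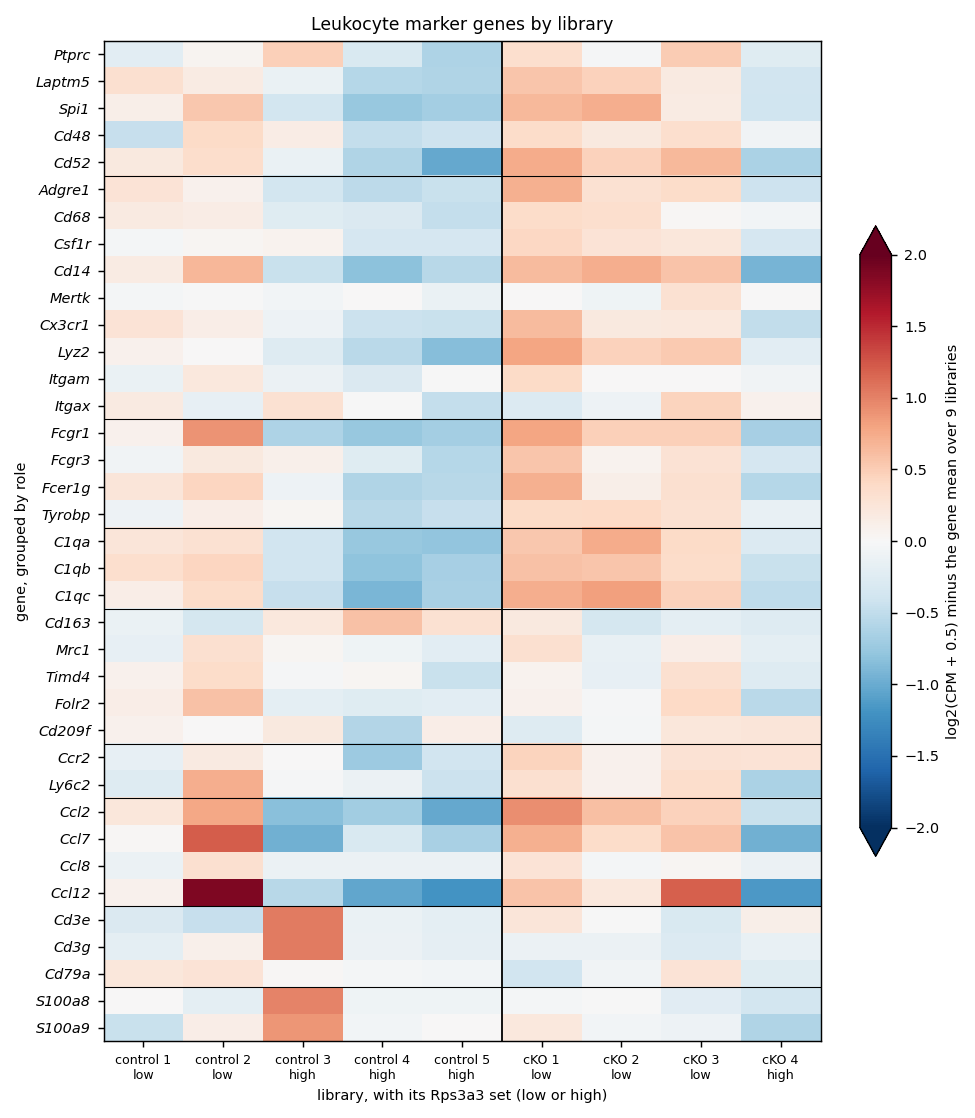
Log2(CPM + 0.5) of the 37 leukocyte genes relative to each gene's mean over the 9 libraries, with genes in rows by role and libraries in columns with their Rps3a3 set. Most macrophage rows are red in low libraries and blue in high ones, the strongest red being Ccl12 in control replicate 2, and Cd3e, Cd3g, S100a8 and S100a9 are red in control replicate 3.

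The tested lymphocyte and neutrophil genes, Cd79a, S100a8 and S100a9, passed neither test. Cd3e, a chain of the T cell receptor complex, was at 0.0602, 0, 0.914, 0.126 and 0.0970 CPM in controls 1 to 5 and 0.311, 0.186, 0.0579 and 0.242 CPM in cKO 1 to 4. Cd3g was at 0.120, 0.261, 0.970, 0.157 and 0.129 CPM in controls 1 to 5 and 0.156, 0.159, 0.0869 and 0.145 CPM in cKO 1 to 4. Control replicate 3 stood above every other library in both. The thymocyte gene Rag1, which cuts receptor genes for rearrangement, was at 0.150, 0.116, 6.23, 0.0629 and 0 CPM in controls 1 to 5 and 0, 0.106, 0 and 0.363 CPM in cKO 1 to 4. In the same library Cd8a was at 4.43 CPM, Dntt at 1.47 and Themis at 1.22. Control replicate 3 was the highest library for Rag1, Cd8a, Dntt and Themis, and their part in the member values was not tested. Ptcra, another thymocyte gene, had no count in any library, and Cd1d1, the most abundant gene of the thymocyte list and the only one tested, was highest in cKO replicates 3 and 1, at 31.7 and 31.2 CPM, against 27.4 CPM in control replicate 3 (log2 fold change 0.19 ± 0.15 (SE), adjusted p = 0.418). Cd79a, a chain of the B cell receptor, was at 0.467 to 1.01 CPM (log2 fold change -0.30 ± 0.27 (SE), adjusted p = 0.502). Without control replicate 3, 15 of 33 tested members were lower in the high set (1.14% of all genes) and 0 were called by genotype (6.23% of all genes).

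S100a8 and S100a9 encode calprotectin, the calcium-binding dimer of neutrophils and monocytes. S100a8 was at 1.72, 1.42, 3.91, 1.57 and 1.58 CPM in controls 1 to 5 and 1.65, 1.70, 1.39 and 1.21 CPM in cKO 1 to 4. S100a9 was at 1.90, 3.07, 5.48, 2.64 and 2.78 CPM in controls 1 to 5 and 3.27, 2.62, 2.52 and 1.65 CPM in cKO 1 to 4. Control replicate 3 was again the highest. By genotype neither passed, with S100a8 at -0.46 (adjusted p = 0.344) and S100a9 at -0.34 (adjusted p = 0.47). Without that library the log2 fold changes were -0.08 and -0.05 (adjusted p = 0.835 and 0.92).

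**Figure D4:**
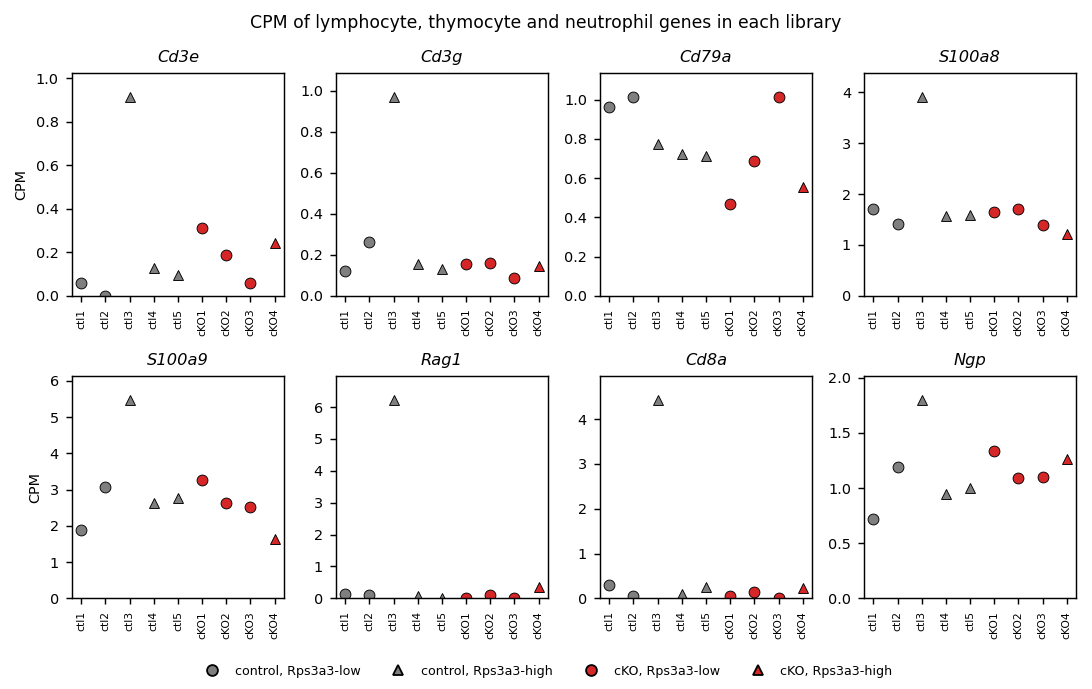
CPM of lymphocyte, thymocyte and neutrophil genes in each library, with control in grey, cKO in red, Rps3a3-low libraries as circles and Rps3a3-high ones as triangles. Control replicate 3 is the highest library in every panel but Cd79a, with Rag1 at 6.23 CPM.

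Other immune and tissue genes were counted from 15 lists, 191 of whose 192 symbols were in the table. Of 48 other phagocyte genes, 4 were higher in cKO and 0 lower, beside 4.01% and 2.72% of all genes. The 48 genes summed to 3106 to 3362 CPM per library, against 197 to 419 CPM for the 37 members. Whole-ventricle RNA does not tell which cells these transcripts came from, so their changes are not assigned to phagocytes. Gas6, the ligand of Mertk, was at 168, 145, 145, 135 and 154 CPM in controls 1 to 5 and 226, 284, 236 and 243 CPM in cKO 1 to 4 (log2 fold change 0.73 ± 0.08 (SE), adjusted p = 9.83e-05). Its groups did not overlap. Ms4a7, a macrophage membrane gene, was at 1.78, 1.68, 2.30, 1.54 and 1.39 CPM in controls 1 to 5 and 4.39, 3.34, 4.06 and 2.69 CPM in cKO 1 to 4 and did not overlap either (log2 fold change 1.05 ± 0.20 (SE), adjusted p = 0.00364). Marco, a scavenger receptor (log2 fold change 1.79 ± 0.49 (SE), adjusted p = 0.0288), and Fgr, a kinase of myeloid cells (log2 fold change 0.97 ± 0.27 (SE), adjusted p = 0.0299), were higher too. Gas6 and Ms4a7 passed under all 18 alternatives tried, while Marco failed under 7 of 17 and Fgr under 7 of 18. Of 6 tested mast cell genes 2 were lower in cKO, the proteases Cpa3 (log2 fold change -0.95 ± 0.28 (SE), adjusted p = 0.0358) and Tpsb2 (log2 fold change -1.10 ± 0.34 (SE), adjusted p = 0.0443), which failed under 8 and 7 of 18 alternatives. No gene passed both the test and the fold of 1.5 in the other 13 lists, which hold macrophage growth factors, antigen presentation by MHC class II, chemokines, cytokines and Toll-like receptors, neutrophils, B cells, T and NK cells, thymocytes, platelets, erythroid cells, cardiomyocytes, fibroblasts and endothelium. Below that fold, and named after their values were seen, 3 of 7 fibroblast genes were higher in cKO at an adjusted p under 0.05 (8.25% of all genes), all without overlap, as were 16.7% of all genes: Col1a1 (log2 fold change 0.52, adjusted p = 0.0346), Col1a2 (0.40, adjusted p = 0.00574) and the transcription factor gene Tcf21 (0.48, adjusted p = 0.0182). Among the other phagocyte genes 2 were lower at that threshold and without overlap, the lysosomal protease Ctsd (-0.27, adjusted p = 0.0146) and Sirpa, a receptor for CD47 (-0.23, adjusted p = 0.0397), and among mast cell genes the receptor kinase Kit (-0.22, adjusted p = 0.0458). Of the cytokine and adhesion genes 1 was lower, Vcam1 (-0.31, adjusted p = 0.0414). Of 9 cardiomyocyte genes 1 was lower, the ventricular myosin light chain Myl2 (-0.43, adjusted p = 0.00124), and of 7 endothelial genes 1, the angiopoietin receptor Tek (-0.28, adjusted p = 0.0193), where 8.03% of all genes were. With library set as a term, 4 of 9 cardiomyocyte genes were lower at that threshold, Myl2, Tnni3, Tnnt2 and Myl3 (9.62% of all genes), and 4 of 6 mast cell genes, Tpsb2, Cpa3, Cma1 and Mcpt4, and 1 of 5 T and NK cell genes, Cd247, were called lower (3.09% of all genes). Col1a2, Myl2 and Ctsd passed under all 18 alternatives, while Col1a1 failed under 7, Tcf21 and Tek under 2 each, Sirpa under 11, Kit under 14 and Vcam1 under 10.

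The summed level of the 37 members was 304, 341, 263, 207 and 197 CPM in controls 1 to 5 and 419, 363, 362 and 226 CPM in cKO 1 to 4. It ranged from 304 to 419 CPM in the low set and from 197 to 263 CPM in the high set, without overlap, and the control range of 197 to 341 CPM overlapped the cKO range of 226 to 419 CPM. Summed levels of erythroid genes were 741 to 1145 CPM in the low and 486 to 828 CPM in the high set, those of fibroblast genes 6463 to 8019.7 CPM and 5587 to 6902 CPM, of endothelial genes 1562 to 1678 CPM and 1501 to 1629.9 CPM and of cardiomyocyte genes 50203 to 65075 CPM and 51506 to 57452 CPM. Over both genotypes these ranges overlapped between the sets. Within the controls, cardiomyocyte sums were 65075 and 62346 CPM in the low and 57452, 55712 and 56015 CPM in the high libraries, and erythroid sums 936 and 874 CPM and 619.5, 492 and 486 CPM, both without overlap and lower in the high libraries, as the summed level of the members was. Within cKO, the high library lay inside the range of the low ones for both sums. Endothelial sums were 1678 and 1661 CPM in the low and 1556, 1629.9 and 1618 CPM in the high controls, and 1562, 1602 and 1636 CPM in the low and 1501 CPM in the high cKO libraries, so the high libraries lay below the low ones within each genotype, as they did for the members. Fibroblast sums overlapped between the sets within the controls, and in cKO the high library was the lowest. By set, 1 of 8 erythroid genes was called lower, the globin gene Hbb-bt (log2 difference -0.82, adjusted p = 0.00746). At smaller folds, 2 of 9 cardiomyocyte genes, Tnni3 (-0.29, adjusted p = 0.0459) and Myl3 (-0.40, adjusted p = 0.0252), and 1 of 7 endothelial genes, Egfl7 (-0.35, adjusted p = 0.0106), had an adjusted p under 0.05, where 3.0% of all genes were lower at that threshold. These 3 were named after their values were seen. The part of these cell types in the leukocyte result was not tested. By genotype the cardiomyocyte sums were 55712 to 65075 CPM in control and 50203 to 55813 CPM in cKO, and the fibroblast sums 5587 to 6902 CPM and 6762 to 8019.7 CPM.

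Other immune genes were also lower in the Rps3a3-high libraries, where 1.56% of all genes were. Of 7 MHC class II genes, 3 were called lower: Ciita, Cd74 and H2-Ab1. Of 48 other phagocyte genes, 6 were, and those with the smallest adjusted p were Coro1a, an actin-binding protein of leukocytes (-0.93, adjusted p = 0.00895), Ms4a6c (-0.98, adjusted p = 0.00983) and the protease Ctss (-1.04, adjusted p = 0.0123), each given as a log2 difference. 2 of 18 other chemokine genes were lower, Cxcl16 (-0.68, adjusted p = 0.0108) and Cxcl10 (-3.92, adjusted p = 0.0431). In 4 more lists 1 gene each was lower: the growth factor Csf1 among 6, the cytokine Tnf among 15 (-1.29, adjusted p = 0.0276), the mast cell protease Tpsb2 among 6 (-1.05, adjusted p = 0.015) and the B cell gene Ighm among 6 (-0.79, adjusted p = 0.0228). No gene of the 15 lists was called higher, and none was called in the neutrophil, T and NK cell, thymocyte, platelet, cardiomyocyte, fibroblast and endothelial lists. Over all lists 16 genes were called lower, and the count was 1 without control replicate 2, 6 without control replicate 4, 7 without control replicate 5 and 2 without cKO replicate 4, with 0.493%, 0.681%, 0.702% and 0.498% of all genes then called lower.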

How the data were processed

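RNA of ventricles at postnatal day 7 was measured in 5 control and 4 cKO libraries, grouped by their labels. The deposited values are raw counts per gene, made by the authors from stranded mRNA libraries read as single-end reads; the submitters' processing notes name STAR 2.4.2a, HTSeq 0.6.1 and mm10. The annotation release and whether counting used strand are not given in the sources used here, so overlapping, antisense and near-identical genes are uncertain. The table holds 38293 genes by Ensembl identifier, of which 36429 matched GENCODE M21 (GRCm38, 99.82% of counts), and 0 other sample columns. The study's methods state 4 controls and a legend 5; all 5 labelled controls were used. Symbols and coordinates (1-based) are from that annotation.

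Genes were filtered with filterByExpr (minimum count 10, 15318 genes kept), scaled by TMM and tested with edgeR 4.0.16 (R 4.3.3, quasi-likelihood F test, robust), two-sided, adjusted over all genes by Benjamini-Hochberg; a call needs an adjusted p under 0.05 and a fold over 1.5. The fits were genotype alone, genotype with library set (Rps3a3 above or below 10 CPM), and their interaction, tested first on simulated data. CPM are counts divided by the TMM-scaled total of kept genes in units of 1e6. SE come from the F statistic. In these libraries 3 counts are 0.0749 to 0.0967 per 1e6 counts. Alternatives were DESeq2 1.42.0, other scalings and filters, a replicate block, library set as a term, the low set alone, leaving out each library and, chosen after the data were seen, removal of GC and length trends and all alternatives for companion genes by library set. The members and lists were chosen with earlier results of these data known. All members are named; of each companion list up to 3 higher and 3 lower called genes, and markers needed to state presence or absence.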

Additional observations from a re-analysis of the deposited data

Results flagged for a closer look

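A library was singled out where its gap to the nearest library of its own group exceeded Dixon's 95% critical value. Chance singles out about 1 in 20 groups. Some of these genes were chosen after their values were seen and Rps3a3 defines the library sets, so the number of libraries singled out is not read against chance. In cKO replicate 4, outside the rest of its group were Cd14 at 1.26 CPM (others 4.46 to 5.01), Csf1 at 33.0 CPM (others 48.0 to 50.8), Rps3a3 at 99.7 CPM (others 0.345 to 0.498) and Rps3a1 at 70.8 CPM (others 258 to 276). In cKO replicate 4, outside the rest of its group was Rag2 at 0.121 CPM (others 0). In cKO replicate 1, outside the rest of its group was Itgam at 5.66 CPM (others 3.99 to 4.24). In control replicate 4, outside the rest of its group was Cd209f at 0.0944 CPM (others 0.405 to 0.526). In control replicate 2, outside the rest of its group were Ly6c2 at 0.898 CPM (others 0.129 to 0.332), Ccl7 at 4.34 CPM (others 0.582 to 1.62), Ccl8 at 0.174 CPM (others 0) and Ccl12 at 8.05 CPM (others 0.517 to 1.99). In control replicate 2, outside the rest of its group were Cxcl9 at 38.9 CPM (others 0.873 to 3.34), Cxcl10 at 8.80 CPM (others 0.220 to 0.903), Ciita at 2.98 CPM (others 0.126 to 0.331) and Csf1 at 68.2 CPM (others 32.8 to 40.1). In control replicate 2, outside the rest of its group were H2-Ab1 at 4.03 CPM (others 0.975 to 1.72) and Cpa3 at 4.14 CPM (others 2.58 to 3.02). In control replicate 3, outside the rest of its group were Cd3e at 0.914 CPM (others 0 to 0.126), Cd3g at 0.970 CPM (others 0.120 to 0.261), S100a8 at 3.91 CPM (others 1.42 to 1.72) and Cd3d at 1.22 CPM (others 0.0301 to 0.0970). In control replicate 3, outside the rest of its group were Cd8a at 4.43 CPM (others 0.0579 to 0.301), Trbc2 at 3.10 CPM (others 0.126 to 0.150), Rag1 at 6.23 CPM (others 0 to 0.150) and Rag2 at 0.554 CPM (others 0). In control replicate 3, outside the rest of its group were Dntt at 1.47 CPM (others 0 to 0.0323) and Themis at 1.22 CPM (others 0 to 0.0301). No difference in the genotype effect between library sets passed for a member.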

How the results depend on the processing

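Members called by genotype numbered 0 with edgeR, 1 with DESeq2 (Lyz2), 1 with the replicate number as a block (control replicate 5 left out) and 0 to 2 when each library was left out, the highest without cKO replicate 4, where 6.72%, 7.4%, 5.76% and 5.88% to 7.55% of all genes were called. Other scalings, filters, the low set alone, library set as a term and GC and length trends removed left the count at 0. The replicate numbers were not taken as pairs: deviations of same-numbered samples correlated at -0.05, 0.07, -0.01 and 0.30, and not every sample correlated best with its own number. These deviations also went with library set: cKO replicate 4 correlated at 0.40, 0.30 and 0.34 with controls 3 to 5. With controls 1 and 2 it correlated at -0.35 and -0.48. The correlations therefore cannot exclude a litter or batch shared by same-numbered samples. Under the block 3 of 34 members had an adjusted p under 0.05 (11.3% of all genes), C1qc (log2 fold change 0.61, adjusted p = 0.0127), which was the 1 called, C1qa (log2 fold change 0.50, adjusted p = 0.0191) and Lyz2 (log2 fold change 0.56, adjusted p = 0.00766), the last 2 below the fold of 1.5. Members lower in the Rps3a3-high libraries numbered 16, and 6 to 17 when each library was left out, the lowest without cKO replicate 4, while the share of all genes called lower was 1.56% with all libraries and 0.493% to 1.86% without 1 of them; the cause was not tested. DESeq2, RLE scaling and no filter each gave 16 (2.29%, 1.56% and 0.818% of all genes). Companion genes lower by set numbered 16, 25 with DESeq2, 16 with RLE scaling, 18 with no filter, 12 with GC and length trends removed and 1 to 20 leaving out each library. In the same order, 1.56%, 2.29%, 1.56%, 0.818%, 1.03% and 0.493% to 1.86% of all genes were called lower. The interaction could not be fitted without cKO replicate 4. Companion genes called higher in cKO numbered 4, 11 with DESeq2, 2 with the block, 2 in the low set alone and 2 to 10 leaving out each library (10 without control replicate 1, 9 without control replicate 2, 2 without control replicate 3, 2 without control replicate 4, 2 without control replicate 5, 2 without cKO replicate 3, 10 without cKO replicate 4). Of all genes, 614 of 15318 were called higher, and 676 of 15318 with DESeq2. With the block it was 505 of 15249, in the low set alone 313 of 15599, and 534 to 710 leaving out each library. Companion genes called lower in cKO numbered 2, 4 with DESeq2, 1 with the block, 5 with library set as a term, 1 in the low set alone, 4 with GC and length trends removed and 0 to 5 leaving out each library (1 without control replicate 1, 0 without control replicate 2, 0 without control replicate 4, 1 without control replicate 5, 5 without cKO replicate 1, 0 without cKO replicate 2, 0 without cKO replicate 3, 0 without cKO replicate 4). Of all genes, 416 of 15318 were called lower, 458 of 15318 with DESeq2 and 374 of 15249 with the block. It was 473 of 15318 with library set as a term and 307 of 15599 in the low set alone. With GC and length trends removed it was 499 of 15174, and 375 to 461 leaving out each library. Arid1a was at -0.33 with adjusted p = 0.0822 in the low set alone and passed under the other alternatives. Signs changed in at least 1 alternative for 12 members by genotype and 5 by set, without a pass on either side of the change. At these depths members under 1 CPM rest on few counts.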

Other observations

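Genes induced by interferon gamma and chosen after their values were seen differed widely between libraries. Cxcl9, a chemokine of that response, was at 3.34, 38.9, 1.55, 1.13 and 0.873 CPM in controls 1 to 5 and 16.8, 9.07, 32.2 and 0.944 CPM in cKO 1 to 4. Cxcl10 was at 0.903, 8.80, 0.360, 0.220 and 0.226 CPM in controls 1 to 5 and 3.76, 1.88, 7.24 and 0.363 CPM in cKO 1 to 4. Ciita, the switch of MHC class II transcription, was at 0.331, 2.98, 0.194, 0.126 and 0.194 CPM in controls 1 to 5 and 1.03, 0.928, 2.43 and 0.121 CPM in cKO 1 to 4. Control replicate 2 and cKO replicate 3 were the highest libraries in each, and the 4 Rps3a3-high libraries were the lowest, as for Ccl12. By genotype none passed in edgeR, with log2 differences of 0.68 for Cxcl9 (adjusted p = 0.788), 0.64 for Cxcl10 (adjusted p = 0.785) and 0.53 for Ciita (adjusted p = 0.783). By set, Cxcl10 (-3.92, adjusted p = 0.0431) and Ciita (-3.34, adjusted p = 0.0262) passed and Cxcl9 (-4.21, adjusted p = 0.0558) did not. Csf1, the ligand of Csf1r, was at 40.1, 68.2, 33.6, 32.8 and 35.1 CPM in controls 1 to 5 and 48.0, 49.7, 50.8 and 33.0 CPM in cKO 1 to 4 and was lower in the Rps3a3-high libraries (log2 difference -0.64 ± 0.13 (SE), adjusted p = 0.0243). Control replicate 2, an Rps3a3-low library, lay outside the rest of its group for Cxcl9, Cxcl10, Ciita and Csf1. Most of the companion genes called lower by set were no longer called without that library.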
